A study of Mus musculus with 16 samples.

Results

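The genes described here encode cell surface proteins that bind amyloid fibrils, and the core proteins and polymerases of heparan sulfate. They are 9 listed genes, Lrp1, Prnp, Aplp1, Sdc2, Sdc3, Sdc4, Gpc1, Ext1 and Ext2. They were chosen by name, with earlier results of these data known. All 9 were among the 16934 genes of the raw counts table, and all 9 passed the filter on low counts that left 13139 genes to test. Their messenger RNA was read at the 3′ end in primary cortical neurons of C57BL/6 mice, prepared on embryonic days 15 to 16 and kept 14 days in culture.

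The 16 libraries formed 4 groups of 4. In the first, neurons had taken up Atto488-labelled α-synuclein fibrils, given at 0.1 µM over 16 h, and were then kept with microglia, the immune cells of the brain, for 6 h. The second group held untreated neurons kept with microglia for 6 h. The third held fibril-loaded neurons kept alone and the fourth untreated neurons kept alone. The comparisons address how transcript levels of these cultures differ with the presence of microglia and with a fibril load. The RNA also held transcripts of other cell types, whose marker sums are given below. Comparisons below share libraries, since each group serves in several of them. The labels give no source for the microglia, no step that parts them from neurons before RNA was taken, and no statement that libraries came from separate cultures or animals. Each p-value therefore rests on differences among these libraries that may be technical only.

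Aggregated α-synuclein enters neurons mainly by endocytosis, after it has bound to the cell surface. Heparan sulfate, a long and strongly sulfated sugar chain, is a main binding surface for it. The chains are built onto core proteins, among them the membrane-spanning syndecans and the lipid-anchored glypicans, by the paired polymerases EXT1 and EXT2. Protein receptors have been reported as well, among them the cellular prion protein, the amyloid precursor-like protein APLP1 and the endocytic receptor LRP1.

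The libraries held 6511516 to 13986374 counts, of which the ribosomal RNA precursor Rn45s took 9.35% to 26.8%. The common biological coefficient of variation was 1.17, so libraries of one group differed widely. Summed neuronal markers (12 genes) lay at 1200 to 1860 CPM (counts scaled to a common library size) in loaded neurons with microglia and at 1030 to 2790 CPM in untreated neurons with microglia. Alone they lay at 1360 to 7200 CPM in loaded neurons and at 2980 to 7290 CPM in untreated neurons. Markers of excitatory neurons (8 genes) summed to 181 to 835 CPM with microglia and 1320 to 6900 CPM alone in loaded neurons. In untreated neurons they summed to 217 to 2010 CPM with microglia and 5820 to 8690 CPM alone. Those of inhibitory neurons (8 genes) summed to 16.8 to 190 CPM and 42.6 to 334 CPM in loaded neurons, and to 27.9 to 149 CPM and 65.7 to 358 CPM in untreated ones. Microglial markers (14 genes, of which P2ry12 and Tmem119 had no count in any library) stood apart in replicate 1 of both co-culture groups, at 1430 CPM with fibrils and 732 CPM without. In the other 6 co-culture libraries they summed to 13.7 to 79.8 CPM, and in the 8 libraries of neurons alone to 8 to 41 CPM. In bulk RNA, fewer cells of a type and less RNA per cell cannot be told apart.

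Promoter sequences are shown for the 5 members with an unadjusted p under 0.05 between co-culture and neurons alone, averaged over fibril state. Of these Lrp1 alone passed the test after adjustment. The fitted difference was above 0 for Lrp1 and Sdc3 and below 0 for Prnp, Aplp1 and Sdc4. RefSeq (build GRCm38.p6) gave a promoter, 250 bases before to 50 after the gene's start, for 6 of the 9 genes. Capitals mark the GC box, the letters GGGCGG on either strand, where transcription factors of the Sp family can bind. The windows are chr10:127621099-127621398 (minus strand) for Lrp1, chr4:130792287-130792586 (plus strand) for Sdc3, chr2:131909678-131909977 (plus strand) for Prnp, chr7:30445533-30445832 (minus strand) for Aplp1 and chr2:164443139-164443438 (minus strand) for Sdc4. The Sdc4 window lies inside the span that the GENCODE annotation gives this gene, whose start there is farther upstream than in RefSeq.
Lrp1: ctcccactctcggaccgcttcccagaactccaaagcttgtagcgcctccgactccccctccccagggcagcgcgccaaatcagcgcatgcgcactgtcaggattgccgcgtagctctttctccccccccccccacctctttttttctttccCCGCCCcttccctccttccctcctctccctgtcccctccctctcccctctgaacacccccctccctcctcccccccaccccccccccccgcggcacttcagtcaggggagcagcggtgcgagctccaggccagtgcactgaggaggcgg
Sdc3: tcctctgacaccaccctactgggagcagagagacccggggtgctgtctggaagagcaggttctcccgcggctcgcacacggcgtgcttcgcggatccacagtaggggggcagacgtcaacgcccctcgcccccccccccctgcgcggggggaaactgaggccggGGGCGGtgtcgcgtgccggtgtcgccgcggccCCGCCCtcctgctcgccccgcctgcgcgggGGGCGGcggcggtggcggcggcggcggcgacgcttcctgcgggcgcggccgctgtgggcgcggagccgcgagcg
Prnp: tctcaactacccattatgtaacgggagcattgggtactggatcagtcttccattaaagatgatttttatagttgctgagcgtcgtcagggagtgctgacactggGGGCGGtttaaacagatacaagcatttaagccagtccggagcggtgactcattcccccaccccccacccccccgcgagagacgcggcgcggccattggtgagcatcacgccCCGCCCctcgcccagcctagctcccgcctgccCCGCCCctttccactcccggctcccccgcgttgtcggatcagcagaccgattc
Aplp1: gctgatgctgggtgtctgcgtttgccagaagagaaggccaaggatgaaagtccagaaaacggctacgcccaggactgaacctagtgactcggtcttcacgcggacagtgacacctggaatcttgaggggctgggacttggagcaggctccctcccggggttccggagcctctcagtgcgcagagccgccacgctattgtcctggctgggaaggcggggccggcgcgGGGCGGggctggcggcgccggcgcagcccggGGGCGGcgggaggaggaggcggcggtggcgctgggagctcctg
Sdc4: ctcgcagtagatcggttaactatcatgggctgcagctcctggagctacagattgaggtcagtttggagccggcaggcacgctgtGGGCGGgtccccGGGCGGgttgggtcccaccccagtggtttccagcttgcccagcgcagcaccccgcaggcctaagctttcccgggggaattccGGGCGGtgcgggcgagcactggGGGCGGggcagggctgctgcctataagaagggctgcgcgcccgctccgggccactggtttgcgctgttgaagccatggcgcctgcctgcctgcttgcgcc

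The Lrp1 window held 1 GC box, the Sdc3 and Prnp windows 3 each and the Sdc4 window 4, while that of Aplp1 held 2 and that of Ext2 0. Of all 32851 promoter windows of the same length, 35.7% held at least 1. The letters CCAAT were found at 2 places in Prnp and in none of the other 5 windows, against 37.4% of all windows. The letters TATAAA, searched on both strands like the others, were found in Prnp only, against 13.6% of all windows. The 6 windows were 58.0% to 77.7% G and C, with a median of 52.7% over all windows.

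The 9 genes spanned a wide range of levels, given as CPM scaled by TMM (trimmed mean of M-values). Since the kit reads transcript ends, CPM were not divided by gene length. Prnp was the most abundant with a mean of 525 CPM over the 16 libraries, followed by Lrp1 (285 CPM), Sdc3 (212 CPM), Aplp1 (152 CPM) and Sdc4 (111 CPM). Sdc2 (47.3 CPM), Ext1 (45.2 CPM), Gpc1 (42.1 CPM) and Ext2 (35.5 CPM) lay close together, with ranges over the libraries that overlapped almost wholly. Prnp had the highest CPM of the 9 in 11 libraries, Lrp1 in 3 and Sdc3 in 2. Each count behind these values was at least 77, so counting error was small beside the spread between libraries.

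**Figure D1:**
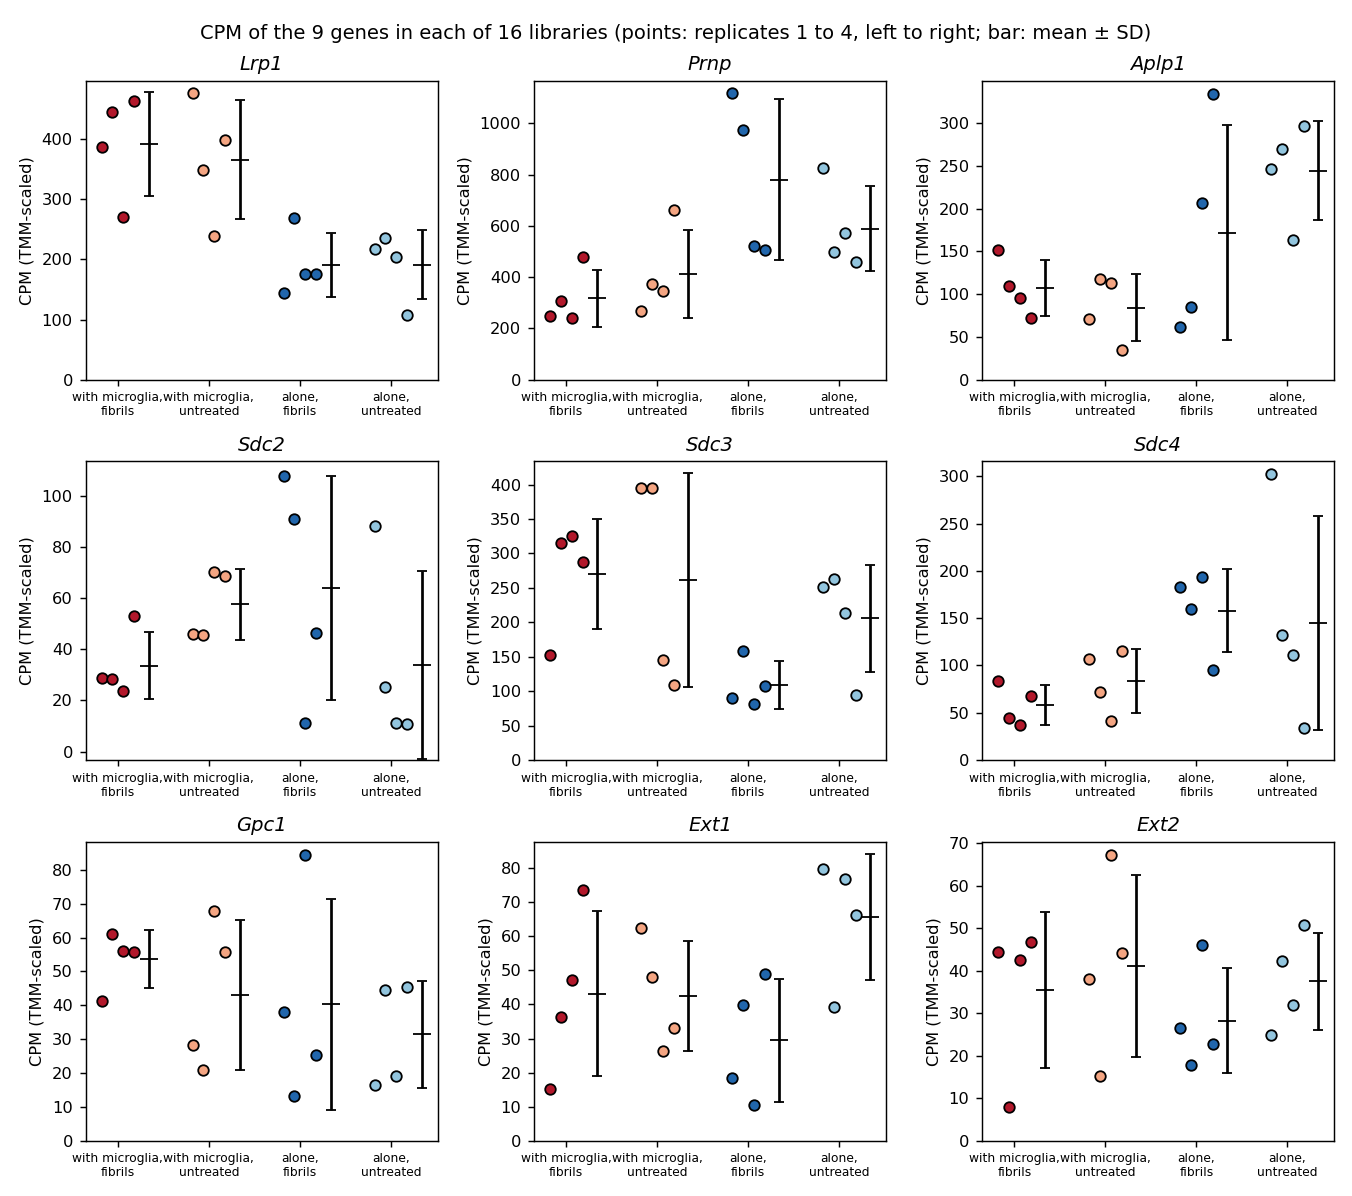
CPM of the 9 genes (vertical axes, TMM-scaled) in every library of the 4 groups, with replicates 1 to 4 from left to right in each group and the mean ± SD beside them. Lrp1 lay at 239 to 476 CPM in the 8 co-culture libraries and at 107 to 268 CPM in the 8 libraries of neurons alone, while Prnp lay at 239 to 663 CPM in co-culture and at 459 to 1120 CPM in neurons alone, a difference that did not pass the test.

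Lrp1 (chr10:127538161-127621148, minus strand, GRCm38) encodes the low-density lipoprotein receptor-related protein 1, an endocytic receptor of many ligands. It was at 386, 445, 271 and 463 CPM in loaded neurons with microglia and at 476, 349, 239 and 398 CPM in untreated neurons with microglia. Alone, it was at 144, 268, 175 and 175 CPM in loaded neurons and at 217, 236, 204 and 107 CPM in untreated neurons. Within each fibril state the co-culture libraries did not overlap with those of neurons alone, and over both states a single library of loaded neurons alone, replicate 2, passed the lowest co-culture library. Group means were 391 ± 86.7 CPM with microglia and 191 ± 53.9 CPM alone in loaded neurons, and 365 ± 99.1 CPM with microglia and 191 ± 57.2 CPM alone in untreated neurons (SD, n = 4 each).

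Averaged over fibril state, Lrp1 rose with microglia by 0.99 ± 0.23 on the log2 scale (SE), 1.98-fold, with an adjusted p of 0.0203 by edgeR's quasi-likelihood test. It was the single member called in this comparison, where 2.19% of all genes were called, 1.22% higher and 0.974% lower. Over both fibril states together, 0 of 9 members had co-culture libraries wholly apart from neurons alone, as did 0.601% of all genes. The separate differences were 1.04 ± 0.32 in loaded and 0.94 ± 0.32 in untreated neurons (SE; edgeR adjusted p = 0.204 and 0.356), and neither passed. Without both microglia-rich libraries the averaged difference was 0.92 with an adjusted p of 0.0666, and it missed the threshold as well without replicate 2 of the loaded co-cultures (adjusted p = 0.0502) or replicate 1 of the untreated ones (adjusted p = 0.0538). Over all alternatives and single libraries left out, its adjusted p ran from 0.000703 to 0.0666 and its difference from 0.90 to 1.21. The microglia-rich libraries had 386 and 476 CPM of Lrp1, within or just above the 239 to 463 CPM of the other 6 co-culture libraries. Summed markers of the oligodendrocyte lineage (14 genes) were also higher in co-culture, at 4010 to 9720 CPM against 1090 to 3040 CPM in neurons alone. Within groups they followed the order of Lrp1 in untreated co-cultures only. Those had sums of 7810, 4450, 4010 and 5080 CPM beside 476, 349, 239 and 398 CPM of Lrp1. Loaded co-cultures had 9720, 8300, 6480 and 5930 CPM beside 386, 445, 271 and 463 CPM. In untreated neurons alone, the lowest sum, 1090 CPM, was beside the highest Lrp1, 236 CPM. The part of microglial or oligodendrocyte RNA in the result was not tested.

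Prnp (chr2:131909928-131938429, plus strand) encodes the cellular prion protein, a lipid-anchored surface protein. Its level was 249, 306, 239 and 478 CPM in loaded neurons with microglia, against 1120, 976, 520 and 508 CPM in loaded neurons alone. In untreated neurons it was 269, 372, 348 and 663 CPM with microglia, against 828, 500, 573 and 459 CPM alone. The groups did not overlap in loaded neurons and did overlap in untreated ones. The log2 difference was -1.29 ± 0.35 in loaded neurons, -0.51 ± 0.35 in untreated neurons and -0.90 ± 0.25 on average (SE; edgeR adjusted p = 0.15, 0.791 and 0.0527), so none passed. DESeq2 called Prnp in the averaged comparison (adjusted p = 0.00823), as did limma-voom (adjusted p = 0.0234). Prn, an annotated gene that overlaps Prnp on the same strand, was not among the counted genes. Prn ends at position 131956130, past the end of Prnp, and the kit reads transcript ends. Only reads of Prn that fall within Prnp cannot be told apart from those of Prnp. Gpc1 overlaps the microRNA gene Mir149 on its own strand. Lrp1, Sdc3, Gpc1 and Ext2 overlap annotated genes on the opposite strand. Of these partners only Alx4, beside Ext2, was counted, with at most 37 counts in a library. Since the strand setting of the counting is not given, reads of the other partners that fall within a member cannot be told apart from those of the member.

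Prnp was highest where astrocyte markers were highest (10 genes, led by Slc1a2, Aldoc and Slc1a3). The 4 libraries with the highest summed astrocyte markers, at 7840, 7560, 7450 and 6750 CPM, were also the 4 with the highest Prnp, at 1120, 976, 828 and 663 CPM. These were replicates 1 and 2 of loaded neurons alone, replicate 1 of untreated neurons alone and replicate 4 of untreated neurons with microglia. The lowest Prnp, 239 CPM, and the lowest astrocyte sum, 997 CPM, were both in replicate 3 of loaded neurons with microglia. The part of astrocyte RNA in the Prnp differences was not tested.

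Aplp1 (chr7:30434982-30445535, minus strand), a neuronal relative of the amyloid precursor protein, was at 151, 110, 95.3 and 72.2 CPM in loaded neurons with microglia, against 61.4, 84.5, 207 and 334 CPM in loaded neurons alone. In untreated neurons it was at 70.4, 118, 113 and 34.6 CPM with microglia, against 246, 270, 163 and 297 CPM alone. All 4 untreated co-culture libraries thus lay below all 4 of untreated neurons alone, whereas loaded neurons alone spread over both sides of their co-cultures. The difference was -1.54 ± 0.47 in untreated neurons, -0.68 ± 0.46 in loaded neurons and -1.11 ± 0.33 on average (log2, SE; edgeR adjusted p = 0.265, 0.645 and 0.0743). None of the 3 passed, while DESeq2 called the averaged one (adjusted p = 0.0238). Summed neuronal markers were lowest in the library with the lowest Aplp1, at 1030 CPM beside 34.6 CPM. They were 7200 and 7290 CPM in the 2 libraries with the highest Aplp1. The order did not hold throughout, since loaded co-cultures had 151, 110, 95.3 and 72.2 CPM of Aplp1 beside neuronal sums of 1320, 1200, 1860 and 1820 CPM. Replicate 1 of untreated neurons alone had 246 CPM of Aplp1 at the lowest neuronal sum of its group, 2980 CPM. The part of neuronal RNA in the result was not tested.

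**Figure D2:**
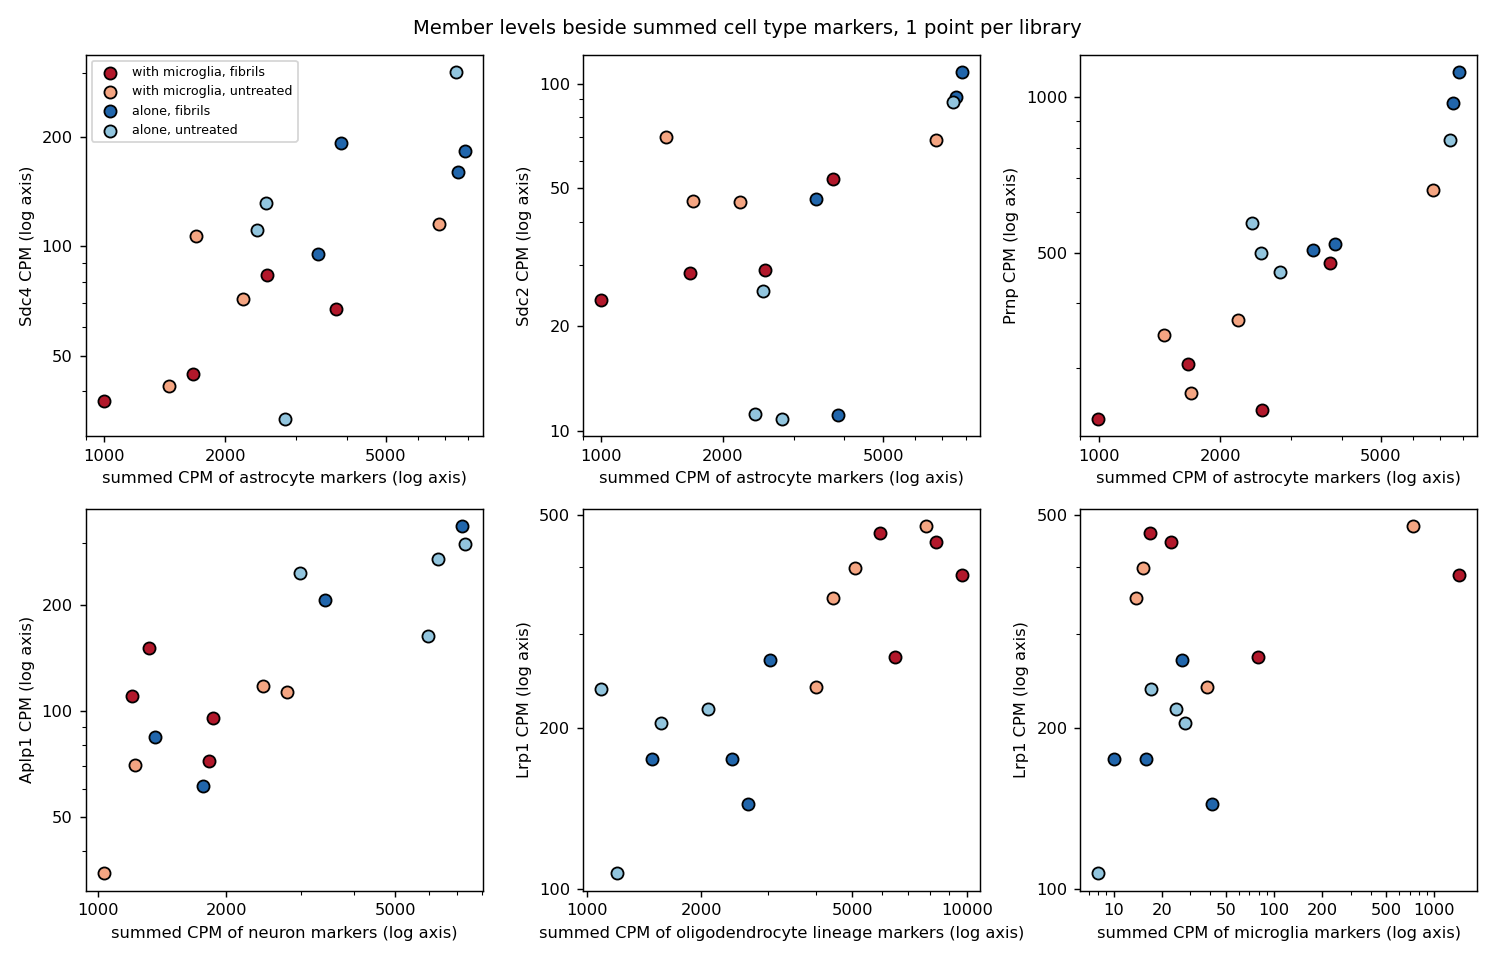
Levels of Sdc4, Sdc2, Prnp, Aplp1 and Lrp1 (vertical axes, CPM, log scale) against the summed CPM of markers of one cell type (horizontal axes, log scale), 1 point per library, coloured by group. Prnp was highest, at 663 to 1120 CPM, in the 4 libraries with 6750 to 7840 CPM of astrocyte markers, and Lrp1 was high in co-culture libraries with and without abundant microglial markers.

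The syndecans, which carry heparan sulfate on a core protein that spans the membrane, did not move together. Sdc3 (chr4:130792537-130826319, plus strand), the syndecan of the nervous system, was at 153, 315, 325 and 288 CPM in loaded neurons with microglia, against 89.8, 159, 81.2 and 108 CPM in loaded neurons alone. Untreated neurons had 395, 395, 146 and 109 CPM with microglia, against 252, 263, 214 and 94.4 CPM alone. Groups overlapped in both fibril states, by 1 library each way in loaded neurons. The difference was 1.30 ± 0.42 in loaded neurons, 0.35 ± 0.41 in untreated neurons and 0.82 ± 0.30 on average (log2, SE; edgeR adjusted p = 0.238, 0.979 and 0.148), and none passed.

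Sdc4 (chr2:164424247-164443887, minus strand), a syndecan of focal adhesions that astrocytes also express, had the opposite sign. Its values were 83.7, 44.7, 37.5 and 67.4 CPM in loaded neurons with microglia, against 183, 160, 193 and 95.1 CPM in loaded neurons alone. In untreated neurons they were 107, 71.5, 41.4 and 115 CPM with microglia, against 302, 132, 111 and 33.5 CPM alone. The loaded groups did not overlap, and in the untreated ones replicate 4 of neurons alone lay below every co-culture library. The difference was -1.44 ± 0.49 in loaded neurons, -0.79 ± 0.49 in untreated neurons and -1.11 ± 0.35 on average (log2, SE; edgeR adjusted p = 0.27, 0.738 and 0.0919). Without that replicate 4 the averaged value was -1.26 with an edgeR adjusted p of 0.034. This was the 1 fit that passed of the 16 with a single library left out. Over those 16 the averaged value ran from -1.26 to -0.79 and the adjusted p from 0.034 to 0.198. The highest Sdc4, 302 CPM, was in replicate 1 of untreated neurons alone, where astrocyte markers summed to 7450 CPM against 2400 to 2810 CPM in the other 3 libraries of that group. Their part in the spread of Sdc4 was not tested.

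Sdc2 (chr15:32920723-33034935, plus strand), a syndecan of dendritic spines and other adhesion sites, was the most variable of the 9. It was at 29.0, 28.5, 23.8 and 53.1 CPM in loaded neurons with microglia, against 108, 91.2, 11.1 and 46.6 CPM in loaded neurons alone. In untreated neurons it was at 45.9, 45.5, 70.2 and 68.9 CPM with microglia, against 88.5, 25.2, 11.2 and 10.8 CPM alone. The 3 highest values, all in neurons alone, were in the same 3 libraries that had the highest astrocyte sums, whereas replicate 3 of loaded neurons alone had 11.1 CPM at a sum of 3860 CPM. Its fitted difference with microglia was -0.93 ± 0.66 in loaded and 0.77 ± 0.66 in untreated neurons (log2, SE; edgeR adjusted p = 0.681 and 0.914). The interaction of microglia and fibrils was -1.70 ± 0.93 (edgeR unadjusted p = 0.0809, adjusted p = 1), the smallest interaction p of the 9 genes.

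Gpc1 (chr1:92831645-92860779, plus strand), a glypican of neurons, and the polymerase genes Ext1 (chr15:53064038-53346159, minus strand) and Ext2 (chr2:93661028-93822568, minus strand) showed no difference beyond their spread. Gpc1 was at 41.3, 61.2, 56.1 and 55.8 CPM in loaded neurons with microglia, at 28.2, 20.9, 67.8 and 55.6 CPM in untreated neurons with microglia, at 38.0, 13.2, 84.5 and 25.4 CPM in loaded neurons alone and at 16.4, 44.6, 19.2 and 45.4 CPM in untreated neurons alone. All 4 groups overlapped. The averaged difference with microglia was 0.44 with an interval of -0.41 to 1.28 for Gpc1, -0.04 (-0.84 to 0.77) for Ext1 and 0.23 (-0.65 to 1.11) for Ext2 (log2, 95% intervals; edgeR adjusted p = 0.675, 0.989 and 0.885). Changes of up to about 1 log2 unit therefore cannot be told from none at this spread. Ext1 ranged from 10.5 to 79.8 CPM and Ext2 from 7.96 to 67.3 CPM over the 16 libraries.

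Fibrils gave no called member. The edgeR test called 0 of 9 in loaded against untreated neurons with microglia and 0 of 9 in loaded against untreated neurons alone, where 0% of all genes were called in either comparison. DESeq2 and both limma fits also called 0 members in both. The groups did not overlap for 0 of 9 members with microglia or alone, against 1.94% and 4.18% of all genes. At an unadjusted p under 0.05 there were 0 of 9 with microglia and 1 of 9 alone, against 3.68% and 6.92% of all genes. That gene was Sdc3, with means of 110 ± 35 CPM in loaded neurons alone and 206 ± 77.2 CPM in untreated neurons alone (SD, n = 4 each; log2 difference -0.91 ± 0.42, SE, edgeR unadjusted p = 0.0402, adjusted p = 0.697). Ext1 was next, at 18.5, 39.9, 10.5 and 49.1 CPM in loaded neurons alone, against 79.8, 39.2, 76.9 and 66.4 CPM in untreated neurons alone. These groups overlapped, and the difference was -1.15 ± 0.56 (log2, SE; edgeR unadjusted p = 0.0506, adjusted p = 0.718). With microglia, Ext1 differed by 0.02 ± 0.55 between loaded and untreated neurons.

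Averaged over microglia state, edgeR called 0 of 9 members (0% of all genes), as did DESeq2, and 0 of 9 had an unadjusted p under 0.05 (6.62% of all genes). For the protein receptors, the averaged fibril difference was 0.05 for Lrp1 (95% interval -0.41 to 0.51), 0.01 for Prnp (-0.49 to 0.52) and -0.08 for Aplp1 (-0.74 to 0.59), all on the log2 scale. An averaged change of 2-fold in either direction lay outside each of these 3 intervals. Opposite signs cancel in that average. For Prnp the separate differences were 0.40 (-0.31 to 1.12) alone and -0.38 (-1.09 to 0.34) with microglia. For Aplp1 they were -0.51 (-1.45 to 0.43) alone and 0.35 (-0.59 to 1.29) with microglia. Each of these separate intervals includes a 2-fold change, while those of Lrp1 do not (-0.66 to 0.65 alone, -0.55 to 0.75 with microglia). The averaged intervals of the heparan sulfate genes were -0.88 to 1.03 for Sdc2, -1.04 to 0.18 for Sdc3 and -0.91 to 0.51 for Sdc4. They were -0.51 to 1.18 for Gpc1, -1.37 to 0.25 for Ext1 and -1.20 to 0.56 for Ext2. The interaction called 0 of 9 members by edgeR, and 0 of 9 had an unadjusted p under 0.05, against 0% and 4.03% of all genes. DESeq2 and limma-voom called 0 members there too. The differences of these genes between fibril states were therefore not shown to depend on microglia.

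**Figure D3:**
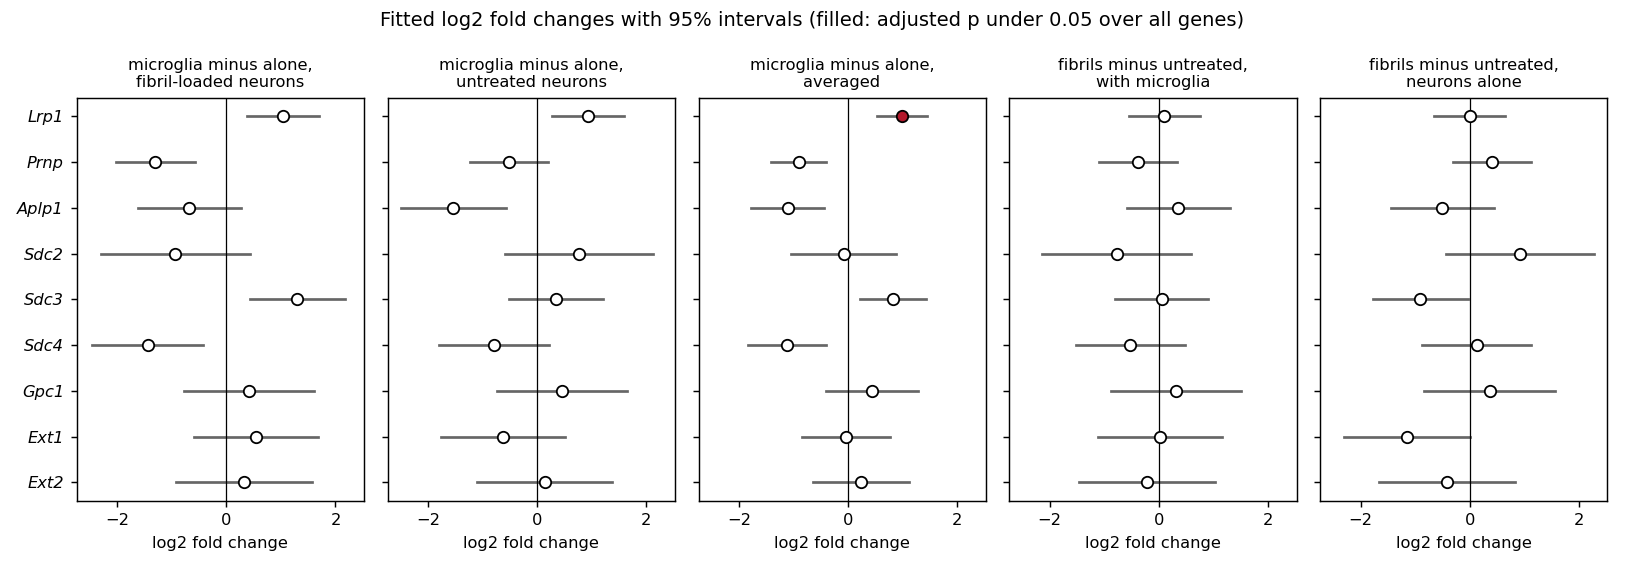
Fitted log2 fold changes (horizontal axes) of the 9 genes with 95% intervals, for microglia in loaded neurons, in untreated neurons and averaged, and for fibrils with microglia and alone. Lrp1 in the averaged microglia comparison is the single filled point (adjusted p = 0.0203), and every fibril interval but that of Sdc3 in neurons alone includes 0.

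Across the microglia comparisons as a whole, 5 of 9 members had an unadjusted p under 0.05 on average, Lrp1, Prnp, Aplp1, Sdc3 and Sdc4, against 16.5% of all genes. With 9 genes of known function picked by name, this count describes them and is no test of the list. The median averaged log2 change of the 9 was -0.04, beside -0.03 over all 13139 genes, since 4 were higher and 5 lower (48.6% and 51.4% of all genes). In loaded neurons edgeR called 0 of 9 and 4 had an unadjusted p under 0.05 (0.114% and 11.7% of all genes), and in untreated neurons it called 0 of 9 and 2 had (0.122% and 9.1% of all genes). DESeq2 called 2 in loaded and 0 in untreated neurons, and limma-voom 0 in both. The groups of loaded neurons did not overlap for 3 members and those of untreated neurons for 2, against 6.32% and 7.58% of all genes. Depth and scaling cancel in a ratio of 2 genes within a library.

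All 36 ratios between member pairs were therefore formed in each library, after the values above had been seen. For 2 of them, 5.56%, the 8 co-culture libraries did not overlap with the 8 of neurons alone, against 0.434% of all pairs of tested genes. The pairs share genes whose values were already known, so this share describes them and is no test. The mix of cell types does not cancel in such a ratio. Both pairs involve Lrp1. The ratio of Lrp1 to Prnp counts was 1.55, 1.46, 1.13 and 0.97 in loaded neurons with microglia and 1.77, 0.939, 0.687 and 0.6 in untreated neurons with microglia. Alone, the ratio was 0.129, 0.275, 0.337 and 0.345 in loaded and 0.262, 0.471, 0.357 and 0.234 in untreated neurons. Lrp1 counts thus reached or passed those of Prnp in 4 co-culture libraries and in no library of neurons alone. The ratio of Lrp1 to Sdc4 ran from 3.46 to 9.96 in co-culture and from 0.719 to 3.20 in neurons alone.

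**Figure D4:**
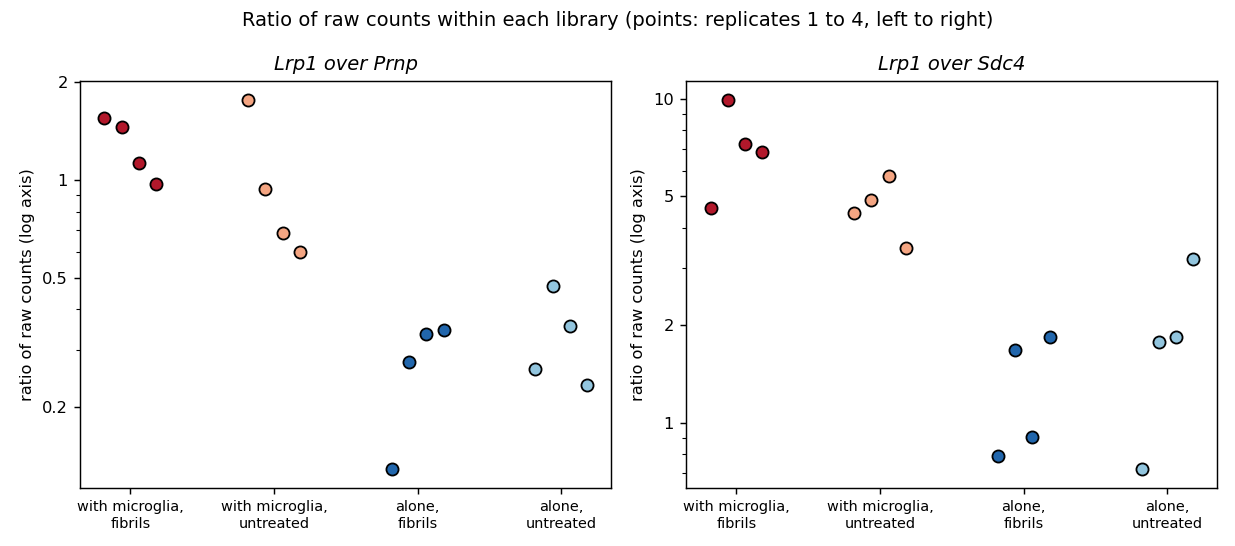
Ratio of Lrp1 to Prnp counts (left) and of Lrp1 to Sdc4 counts (right) within each library, on log axes, by group with replicates 1 to 4 from left to right. The 8 co-culture libraries lie at 0.6 to 1.77 and 3.46 to 9.96, above the 0.129 to 0.471 and 0.719 to 3.20 of the 8 libraries of neurons alone.

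Genes with the profile most like that of a member were named by the root mean square difference of log2 CPM, each gene centred on its own mean over the 16 libraries. For Lrp1 these were Pcdh10 (0.34), Rbbp4 (0.36) and Rdx (0.36), where the median of 9423 candidate genes was 1.19. Prnp was closest to Mras (0.29), Sat1 (0.32) and Dnlz (0.32), and Sdc4 to Ccnd2 (0.39), Apoe (0.45) and Fis1 (0.48). Aplp1 was closest to Disp2, Gng3 and Cdk9 (0.46 to 0.49), and Sdc3 to Pcbp1, Nbr1 and Eif3e (0.44 to 0.48). For Sdc2 the closest were Elovl5, Itgb1bp1 and Rnf215 (0.59 to 0.65), and for Gpc1 Zfp580, Mier2 and Exosc1 (0.45 to 0.54). Ext1 was closest to Rnf7, Fance and Atxn7l3b (0.43 to 0.50), and Ext2 to Rsl24d1, Snx19 and Mapk14 (0.53 to 0.56). No member was among the 3 closest genes of another.

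Related genes were read from 8 lists. Of 12 tested genes of the linker and chain synthesis of heparan sulfate, 7 were higher and 5 lower in co-culture on average. Their median log2 change was 0.53, and edgeR called 1 higher and 0 lower, beside 1.22% and 0.974% of all genes. The called gene was Papss1, an enzyme that makes the sulfate donor PAPS. With microglia, it was at 188, 167, 214 and 253 CPM in loaded and 186, 165, 185 and 155 CPM in untreated neurons. Alone, it was at 119, 92.9, 130 and 42.7 CPM in loaded and 89.4, 87.7, 65.9 and 41.3 CPM in untreated neurons, so that all 8 co-culture libraries lay above all 8 of neurons alone, as in 0.381% of all genes. The oligodendrocyte lineage sums given above were apart in the same way, and their part in the results for Papss1, Sulf2 and Cask was not tested. The averaged difference was 1.19 ± 0.25 (log2, SE; edgeR adjusted p = 0.0126), and it passed in every alternative and with any single library left out. The most abundant others, Extl3, Slc35b2 and Ugdh, did not pass (-0.69 ± 0.27, 0.64 ± 0.32 and 0.67 ± 0.44, log2, SE; edgeR adjusted p = 0.203, 0.318 and 0.48).

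Of 15 tested genes that modify or remove heparan sulfate, 6 were higher and 9 lower on average, with a median log2 change of -0.27. Here edgeR called 1 higher and 0 lower on average, beside 1.22% and 0.974% of all genes. Sulf2, an extracellular sulfatase that takes 6-O-sulfate groups off finished chains, was at 314, 453, 387 and 295 CPM in loaded neurons with microglia, against 103, 91.4, 159 and 94.9 CPM in loaded neurons alone. Untreated neurons had 213, 273, 153 and 131 CPM with microglia, against 163, 108, 159 and 84.5 CPM alone. Its difference was 1.69 ± 0.33 in loaded neurons and 1.14 ± 0.23 on average (log2, SE; edgeR adjusted p = 0.0388 and 0.0108). In untreated neurons it was 0.58 and did not pass. With microglia, all 4 loaded libraries lay above all 4 untreated ones, a fibril difference of 0.92 that did not pass (edgeR unadjusted p = 0.00974, adjusted p = 1). The call in loaded neurons was lost in a fit of those 2 groups alone (adjusted p = 0.0719) and without both microglia-rich libraries (adjusted p = 0.0545), and it held in 9 of the 16 fits with a single library left out, where the adjusted p ran from 0.0313 to 0.165. It was lost without replicate 1, 2 or 3 of the loaded co-cultures, replicate 1, 2 or 4 of the loaded neurons alone, or replicate 2 of the untreated neurons alone. Ndst1, which starts the sulfation of the chain, was abundant at 282 ± 131 CPM in loaded neurons with microglia and 333 ± 215 CPM in loaded neurons alone, and at 224 ± 47.4 CPM in untreated neurons with microglia and 277 ± 51 CPM in untreated neurons alone (SD, n = 4 each). Its averaged difference was -0.27 ± 0.27 (log2, SE; edgeR adjusted p = 0.702), and Hs2st1 and Hs6st2 did not pass either (adjusted p = 0.959 and 0.979).

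The lists of other carriers held no called gene in the averaged comparison. Of 6 other syndecans and glypicans 5 were higher, with a median of 0.52, and of 6 other heparan sulfate carriers 2 were higher, with a median of -0.66. The median of those 6 depends on Tgfbr3, which had no count in a whole group, and is -0.17 with that gene taken from CPM pooled over the 8 libraries of each side. The most abundant of these carriers were Agrn, Nrp1 and Cd44, at means of 88.4, 32.1 and 30.3 CPM in loaded neurons with microglia, against 41.1, 48.6 and 48.7 CPM in loaded neurons alone. Untreated neurons had 51.8, 44.3 and 30.3 CPM with microglia, against 43.7, 85.2 and 85.7 CPM alone. Hspg2 was scarcer, at 4.14 ± 8.28 CPM with microglia against 11.1 ± 12.7 CPM alone in loaded neurons. In untreated neurons it was at 10.1 ± 4.83 CPM with microglia against 1.61 ± 3.23 CPM alone (SD, n = 4 each). The means of 4.14 and 1.61 CPM each came from a single library, at 16.6 and 6.46 CPM, and no difference of Hspg2 passed. Gpc6 was the most abundant of the other glypicans, at 33.3 ± 16.9 CPM in loaded neurons with microglia and 18.2 ± 21.7 CPM in loaded neurons alone, and at 36.1 ± 15 CPM in untreated neurons with microglia and 33.2 ± 11.8 CPM in untreated neurons alone (SD, n = 4 each). Gpc2, Gpc5 and Sdc1 averaged 9.63, 11.2 and 9.22 CPM in loaded neurons with microglia, against 13.5, 19.7 and 10.2 CPM in loaded neurons alone. In untreated neurons the order was the other way, at 24.6, 18.3 and 22.4 CPM with microglia, against 12.4, 4.91 and 1.93 CPM alone. The untreated groups did not overlap for Sdc1 (log2 difference 3.53 ± 1.65, SE; edgeR unadjusted p = 0.0434, adjusted p = 0.527), and the averaged differences of these 3 genes were 0.25, 0.54 and 1.69, none of which passed.

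Of 14 genes of the LDL receptor family and its partners, 7 were higher and 7 lower and 0 were called by edgeR in the averaged comparison, with a median of 0.005. The closest was Sorl1, an endosomal sorting receptor, with a difference of -1.50 ± 0.45 (log2, SE; edgeR adjusted p = 0.0883). Vldlr and Lrp8, the reelin receptors, and Lrpap1, the chaperone of the family, had differences of 0.15, -0.28 and -0.40 (edgeR adjusted p = 0.862, 0.745 and 0.545). A difference between Lrp1 and its relatives was not tested. Among relatives of Aplp1 and Prnp, App had a difference of -0.85 ± 0.28, Aplp2 of -0.21 ± 0.21 and Sprn of -2.91 ± 1.30 (log2, SE; edgeR adjusted p = 0.109, 0.696 and 0.269).

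Among 6 tested genes of other reported fibril-binding proteins, 3 were higher and 3 lower on average, with a median of 0.18, and edgeR called 0 of them. At an unadjusted p under 0.05 there were 4 (Clu, Nlgn1, Nrxn2 and Tlr2), beside 16.5% of all genes. The list was picked by name, so this count describes it and is no test. Tlr2 had no count in the 4 libraries of loaded neurons alone and libraries at 0 in every other group. It averaged 5.48 ± 9.2 CPM in loaded neurons with microglia. Untreated neurons averaged 3.96 ± 6.05 CPM of Tlr2 with microglia and 0.549 ± 1.1 CPM alone (SD, n = 4 each). Clu, which encodes the secreted chaperone clusterin, averaged 70.5 ± 52.7 CPM in loaded neurons with microglia and 278 ± 97 CPM in loaded neurons alone (SD, n = 4 each). Untreated neurons averaged 65.2 ± 26.8 CPM of Clu with microglia and 166 ± 134 CPM alone (SD, n = 4 each). Its averaged difference was -1.66 ± 0.44 (log2, SE; edgeR adjusted p = 0.0545). Astrocytes are known to express Clu, and the part of their RNA, with the marker sums given above, was not tested. Nrxn2 and Nrxn3, presynaptic adhesion proteins, and Nlgn1, a postsynaptic one, had differences of -0.52, -0.30 and 0.66 (edgeR adjusted p = 0.19, 0.807 and 0.153).

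Of 11 partners of the syndecan and LRP1 tails and of shedding enzymes, 8 were higher and 3 lower on average. Their median was 0.08, and edgeR called 1 higher and 0 lower, beside 1.22% and 0.974% of all genes. Cask, a scaffold protein that binds syndecan tails, was at 287, 260, 168 and 120 CPM in loaded neurons with microglia, against 94.4, 30.6, 20.5 and 54.9 CPM in loaded neurons alone. Untreated neurons had 180, 100, 98.4 and 120 CPM with microglia, against 122, 71.6, 77.5 and 89.0 CPM alone. The separate differences were 2.06 ± 0.43 in loaded and 0.47 ± 0.42 in untreated neurons (log2, SE; edgeR adjusted p = 0.0604 and 0.933). Neither passed, and the groups overlapped in untreated neurons only. The averaged difference was 1.26 ± 0.30 (log2, SE; edgeR adjusted p = 0.0262). That call was lost without both microglia-rich libraries (adjusted p = 0.105), without replicate 2 of the loaded co-cultures or replicate 1 of the untreated ones (adjusted p = 0.0627 for both), and without replicate 2 or 3 of the untreated neurons alone (adjusted p = 0.0605 and 0.0502). Sdcbp, the adaptor syntenin, Gipc1 and Dab1 had averaged differences of 0.19, 0.05 and 0.08 (edgeR adjusted p = 0.845, 0.974 and 0.975).

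**Figure D5:**
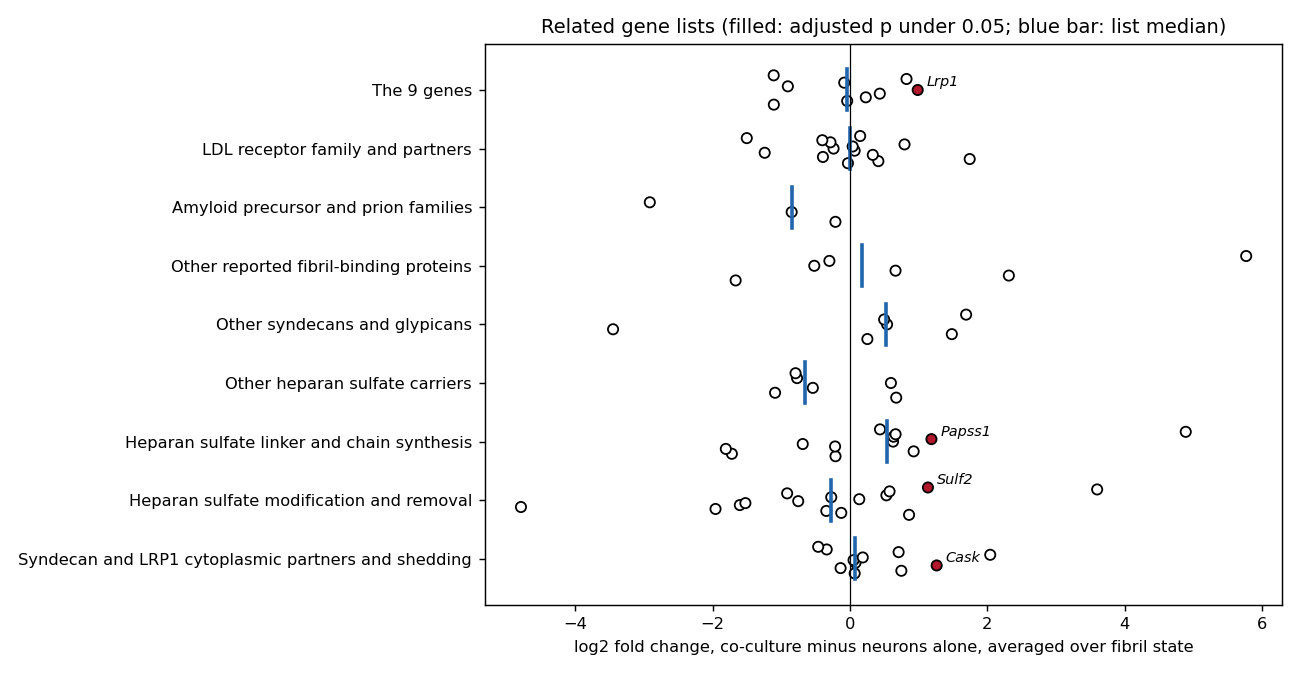
Log2 fold change of co-culture over neurons alone, averaged over fibril state (horizontal axis), for the 9 genes and each tested gene of the 8 related lists (rows), with filled points for an adjusted p under 0.05 and a bar at each list's median. The 4 filled points, Lrp1, Papss1, Sulf2 and Cask, all lie on the higher side, between 0.99 and 1.26.

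In the fibril comparisons edgeR called 0 genes of these lists. The smallest p among them was that of Sulf2 with microglia, given above.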

How the data were processed

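RNA of 16 neuron samples was read with the QuantSeq 3′ forward kit, per the labels' protocols. The submitters' processing notes name STAR, Partek, DESeq2 and the build mm10, without versions. The counting tool, strand setting and annotation are not given in the sources used here. Deposited tables hold raw counts for each gene symbol and, separately, a score for each gene. That score is the authors' normalized value rounded to whole numbers (99.99% lie within 0.6 of the count multiplied by one factor for each library). Groups come from the treatment label, and replicate numbers follow accession order.

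R 4.3.3 and edgeR 4.0.16 were used on the counts. The filterByExpr filter (at least 10 counts, total at least 15) came first, then TMM scaling. One robust quasi-likelihood fit over all 16 libraries had a mean for each group. Calls needed an adjusted p (Benjamini-Hochberg, over 13139 genes) under 0.05. Log2 CPM used a prior count of 2. The fit was tested on simulated data, where it missed nearly all changes of 2-fold and most of 4-fold. Alternatives, among them other scalings, no filter, a replicate block and each library left out, also used limma 3.58.1 and DESeq2 1.42.0. Joins and plots used Python 3.11.15, pandas 2.3.3 and matplotlib 3.10.9. Positions come from GENCODE M21 (GRCm38, the assembly of mm10).

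Members, lists, tests and the 2 averaged comparisons were chosen with earlier results of these data known. All members are named, as are the called and the 4 most abundant genes of each related list and, for each member, the 3 genes of closest profile with a mean log2 CPM above 2. Of the list of other fibril-binding proteins, 2 genes are not reported here, and its counts leave them out. Libraries of a group differed by a chi-square per degree of freedom of 69.2 to 259, so no pair agreed within sampling noise. Since PCR makes copies of molecules, counting error covers only part of the technical error.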

Additional observations from a re-analysis of the deposited data

Results flagged for a closer look

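One member stood apart in 1 of the 36 sets of 4 libraries checked, by a gap to the nearest library that was large against the group's range. Ext2 was at 7.96 CPM in replicate 2 of loaded neurons with microglia, against 42.5 to 46.7 CPM in the other 3. Chance alone sets apart about 1 set in 20.

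Among summed cell type markers 6 of 28 sets held such a library. Microglial markers reached 1430 CPM in replicate 1 of loaded neurons with microglia (16.9 to 79.8 CPM in the other 3) and 732 CPM in replicate 1 of untreated neurons with microglia (13.7 to 38.4 CPM in the other 3). Astrocyte markers reached 6750 CPM in replicate 4 of untreated neurons with microglia (1450 to 2210 CPM in the other 3) and 7450 CPM in replicate 1 of untreated neurons alone (2400 to 2810 CPM in the other 3). In those 2 libraries Prnp had its highest value of the group, at 663 and 828 CPM. Markers of vessels and fibroblasts were low throughout and reached 26.8 CPM in replicate 4 of loaded neurons with microglia and 1.05 CPM in replicate 1 of untreated neurons alone.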

How the results depend on the processing

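In the averaged microglia comparison edgeR called 1 member. It called 2 with no filter on low counts, and both limma fits, limma-voom and that on the deposited normalized values, called 2 (Lrp1 and Prnp), 4 were called by DESeq2 (Lrp1, Prnp, Aplp1 and Sdc4), and 0 without both microglia-rich libraries. With single libraries left out the count ran from 0 to 2. For microglia in loaded neurons DESeq2 called 2 members (Lrp1 and Prnp) in place of 0. No other comparison gained or lost a called member under any alternative, and no called member changed sign. With library totals as the scaling the median averaged change of all genes moved to 0.18 from -0.03, and Lrp1 had 1.21 there. Sdc2 and Ext1, fitted just below 0, changed sign under 9 and 8 of their alternatives, that scaling and single libraries left out among them, and passed under none.

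Among all genes the averaged microglia count was 288 with edgeR, 662 with limma-voom, 480 with limma on the deposited normalized values, 1212 with DESeq2 and 152 without the microglia-rich libraries. For fibrils in neurons alone DESeq2 called 229 genes and edgeR 0. Scaled by library totals, 339 genes were called higher and 83 lower, against 160 higher and 128 lower with TMM.

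With the replicate number as a block, 1 member was called in the averaged microglia comparison, again Lrp1 (0.99, edgeR adjusted p = 0.0177), and 0 in the others. The labels do not say that a number marks a shared culture. Of 24 pairs of libraries sharing a number across groups, 4 deviated together with a correlation over 0.1 (mean 0.04). Among 72 pairs across groups with different numbers, 4 did so (mean -0.01), which is a smaller share. Of 16 libraries, 9 were closest to one of their own number, although pairs with different numbers were more common (72 against 24). The main fit held no term for the number.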
